A study of Homo sapiens with 18 samples.

Results

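The expression of 10 genes of the RNA interference machinery was examined in UM-UC-3 and T24, established lines of human bladder cancer cells. The genes were chosen by symbol and not by their measured values, though earlier results of these data were known at the time. They were found as 10 of the 39496 genes in the count table: AGO1, AGO2, AGO3, AGO4, DICER1, DROSHA, DGCR8, XPO5, TARBP2 and TNRC6A. Cells of each line were transfected with a control siRNA (siNC, genotype WT) or with siACAT1-1 or siACAT1-2 to knock down ACAT1, a mitochondrial enzyme of ketone body and isoleucine metabolism, and RNA-seq was performed on 3 biological replicates in each of the 6 groups. All 18 libraries, the controls included, came from cells that had taken up a small interfering RNA with a lipid reagent, and no untransfected cells are among them. The comparisons therefore give the difference between siRNAs and between cell lines, and the response to transfection itself was not analysed here. The libraries held between 25163490 and 34417230 counted reads.

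Small RNAs silence genes through a chain of proteins. In the nucleus, Drosha and its partner DGCR8 cut primary microRNA transcripts into hairpin precursors. Exportin-5 carries the precursors to the cytoplasm, where Dicer, together with the RNA-binding protein TRBP encoded by TARBP2, trims them to short duplexes. One strand is loaded into an Argonaute protein, and Argonaute recruits a GW182 protein such as TNRC6A, which brings in the enzymes that shorten and decay the target mRNA. A synthetic siRNA enters this chain late, at Argonaute loading, and among the human Argonautes AGO2 is the one best known for slicing a fully matched target.

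ACAT1 was measured first as the targeted gene. Its expression in RPKM (reads scaled to the length of the gene and to the depth of the library) was 46.0 ± 1.68 (SD, n = 3) with siNC in UM-UC-3 cells, and the mean was 93.4% lower with siACAT1-1 and 95.3% lower with siACAT1-2. In T24 cells it was 16.2 ± 1.40 (SD, n = 3) with siNC, and the mean was 92.0% and 95.1% lower, respectively. ACAT1 was lower than siNC in 12 of 12 replicate-matched comparisons, so silencing of the target was measured in every transfected culture. The lines were also checked against marker genes. Of 10 urothelial genes found in the table, 0 reached a median of 1 RPKM in UM-UC-3 groups and 1, PPARG, did so in T24 groups, so most urothelial markers were nearly absent from both lines. Of 6 epithelial genes, KRT7, KRT8 and KRT18 reached a median of 1 RPKM in both lines. KRT18 ranged from 96.6 to 161 RPKM in UM-UC-3 and from 117 to 304 RPKM in T24, while CDH1 had a median of 0 in both lines and KRT19 (0.0910 RPKM) and EPCAM (0.0281 RPKM) had medians near 0 in UM-UC-3 cells, against 18.1 and 1.08 RPKM in T24 cells. Of 6 blood and endothelial genes, 5 (PTPRC, CD3E, PECAM1, VWF and CDH5) were at or near 0, and the lysosomal gene CD68 was the exception.

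The replicate 2 libraries of T24 stood apart from the other T24 libraries with all 3 siRNAs. CD68 was at 121, 154 and 169 RPKM in T24 replicate 2 with siNC, siACAT1-1 and siACAT1-2, against 15.7 to 41.5 RPKM in the other T24 libraries and 126 to 216 RPKM in UM-UC-3 cells. The keratin gene KRT8 was at 117, 94.7 and 143 RPKM in the same 3 libraries, against 288 to 435 RPKM in the other T24 libraries and 27.8 to 45.2 RPKM in UM-UC-3 cells. Across tested genes, the log2 CPM of T24 replicate 2 correlated with the other replicates of its group with r from 0.959 to 0.970, and T24 replicates 1 and 3 with r from 0.982 to 0.984. ACAT1 was low in the knockdown libraries of replicate 2 as well, and MIR503HG, which had 0 counts in all UM-UC-3 siNC libraries, had 105 counts in T24 siNC replicate 2. What sets these libraries apart was not tested, so each comparison was also fitted without them, an alternative chosen after seeing the data, and its values stand beside the results.

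On GRCh38, as the count table gives the exons, DROSHA lies at chr5:31400497-31532196 on the minus strand, DGCR8 at chr22:20080232-20111877 on the plus strand, XPO5 at chr6:43522330-43576075 on the minus strand, DICER1 at chr14:95086228-95158010 on the minus strand, TARBP2 at chr12:53500921-53506431 on the plus strand and TNRC6A at chr16:24610209-24827632 on the plus strand. AGO2 lies at chr8:140520156-140635619 on the minus strand. The other Argonautes are neighbours on the plus strand of chromosome 1, in the order AGO4 (chr1:35808172-35857890), AGO1 (chr1:35869808-35930528) and AGO3 (chr1:35930718-36072500), and only 189 bases separate AGO1 from AGO3 in the table. Among 50-base windows of the annotated transcripts (GENCODE v44), 0 were shared between any of the 10 genes, so exact matches of that length tell the Argonaute paralogs apart. How the counting treated reads that align at several places is not given in the sources used here. At most 1.60% of the windows of any of the 10 genes, those of AGO3, recurred in another gene. Overlap with other genes was largest for DGCR8, of whose exon bases 7.19% are shared with the antisense gene AC006547.8. The strand setting of the counting is not given in the sources used here, so reads of such antisense partners may not have been told apart.

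DROSHA and DGCR8, which together form the nuclear Microprocessor, had the highest expression per length of the 10 genes in both lines. With siNC, DROSHA was at 16.8 ± 1.12 RPKM (SD, n = 3) in UM-UC-3 and 19.6 ± 3.76 in T24, and DGCR8 was at 10.8 ± 1.95 and 11.8 ± 1.65. The libraries of DROSHA, DGCR8 and the gene ranked after them did not overlap in either line. TARBP2 ranked after DGCR8 in UM-UC-3 cells, at 7.58 ± 0.507 RPKM, and TNRC6A did so in T24 cells, at 5.78 ± 1.56. DICER1, XPO5 and AGO4 followed, and in each line their ranges overlapped with those of their neighbours in the order. AGO3 had the lowest expression, at 0.707 ± 0.0298 RPKM in UM-UC-3 and 0.395 ± 0.0424 in T24, and its libraries did not overlap with those of any other of the 10 genes. All 10 genes passed the filter on low counts, and the lowest count was 215 reads, for AGO3.

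**Figure D1:**
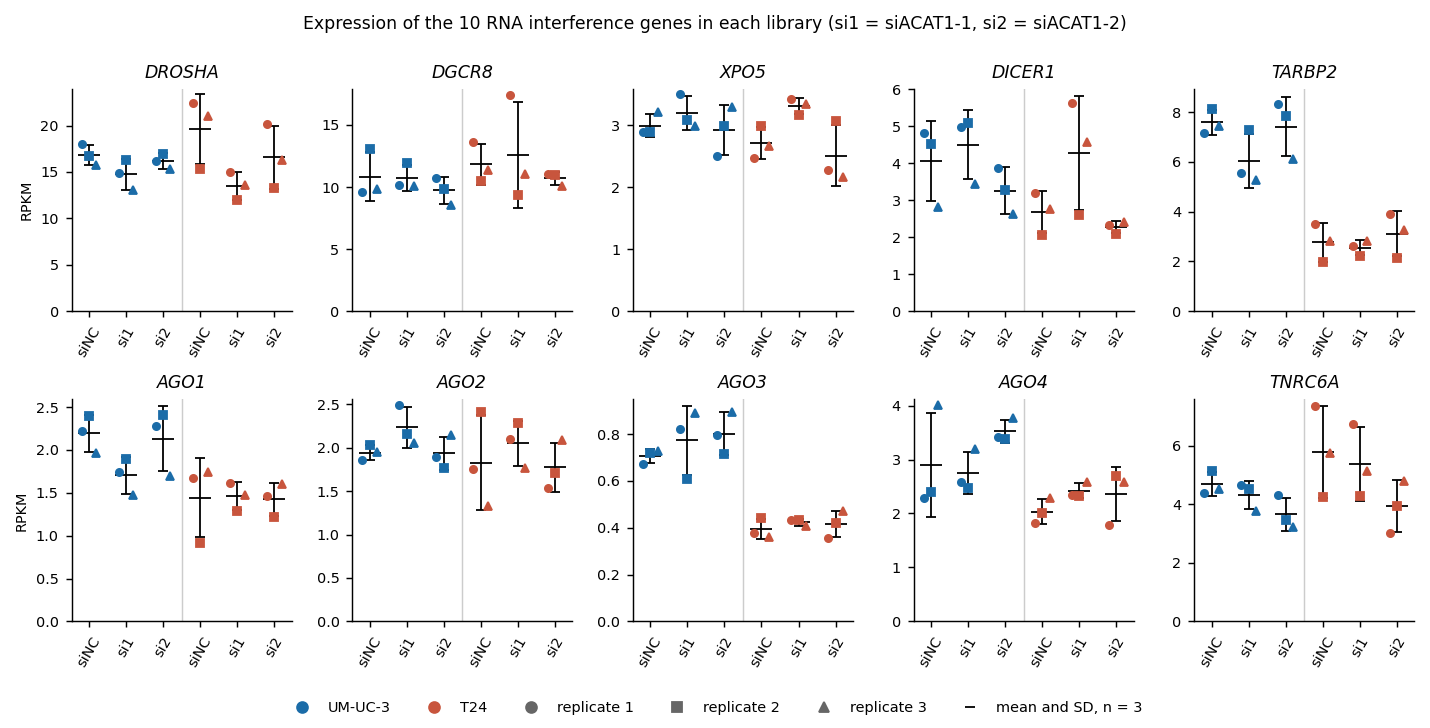
Expression of the 10 genes in each library, in RPKM on linear axes that start at 0, for siNC, siACAT1-1 (si1) and siACAT1-2 (si2) in UM-UC-3 (blue) and T24 cells (red). Symbols are replicates 1 to 3 and black bars are mean and SD (n = 3), and TARBP2 and AGO3 are the 2 genes whose UM-UC-3 libraries all lie above their T24 libraries. How many of all tested genes separate in this way was not counted, and 22.0% of them were called higher in UM-UC-3 with siNC.

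The Argonaute mRNAs were compared as shares of their sum. With siNC, the summed RPKM of AGO1 to AGO4 was 7.74 ± 0.820 (SD, n = 3) in UM-UC-3 and 5.70 ± 0.0689 in T24. AGO4 made up the largest mean share, 36.9 ± 8.22% in UM-UC-3 and 35.7 ± 3.86% in T24. In UM-UC-3 siNC this lead rested mostly on replicate 3, since AGO4 and AGO1 were both at 2.39 RPKM in replicate 2. Replicate 1 had 2.29 RPKM of AGO4 and 2.22 RPKM of AGO1. In T24 siNC replicate 2, AGO2 was at 2.41 RPKM, above AGO4 at 2.00 RPKM. AGO2, which is needed for slicing of fully matched targets, made up 25.3 ± 2.41% in UM-UC-3 and 32.0 ± 9.31% in T24, where its libraries spread from 23.2% to 41.8%, with the highest share in replicate 2. AGO3 made up 9.18 ± 0.653% and 6.92 ± 0.689%, and the ranges of the lines did not overlap. AGO4 kept the largest mean share in all 6 groups (35.7% to 42.0%). This order depends on the exon lengths in the count table, 7267 bases for AGO4, 13886 for AGO1, 15833 for AGO2 and 21157 for AGO3. In counted reads AGO4 lay below AGO2 and AGO1. The siNC libraries together held 1926 reads against 2811 and 2780 in UM-UC-3, and 1331 against 2616 and 1834 in T24. These shares describe mRNA per length in bulk RNA, in which fewer cells expressing a gene and less RNA per cell cannot be told apart, and they are no measure of protein.

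TARBP2 differed most between the cell lines among the 10 genes. With siNC, it was at 7.15, 8.14 and 7.46 RPKM in UM-UC-3 replicates 1 to 3 and at 3.52, 1.97 and 2.83 RPKM in the T24 replicates. Over all siRNAs its UM-UC-3 libraries ranged from 5.25 to 8.32 RPKM and its T24 libraries from 1.97 to 3.92 RPKM, without overlap. The log2 fold change between siNC groups (UM-UC-3 minus T24) was 1.48 with a standard error of 0.27, and the p of edgeR's quasi-likelihood test, adjusted over all genes by the Benjamini-Hochberg method, was 3.2e-04. Leaving out any single library gave 1.22 to 1.74, and the call held in 18 of 18 such fits. Without the T24 replicate 2 libraries it was 1.23 (adjusted p = 3.8e-04).

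The Argonaute genes AGO3, AGO1 and AGO4 were also called higher in UM-UC-3 cells, and these are the neighbours on chromosome 1. AGO3 was at 0.673, 0.720 and 0.728 RPKM with siNC in UM-UC-3 and at 0.379, 0.443 and 0.362 RPKM in T24. Its log2 fold change was 0.89 ± 0.16 (SE), with an adjusted p of 3.0e-04, and the call held in 18 of 18 fits without 1 library and without T24 replicate 2 (0.91, adjusted p = 0.0011). AGO1 was at 2.22, 2.39 and 1.96 RPKM in UM-UC-3 and at 1.67, 0.910 and 1.74 RPKM in T24, so that replicate 2 of T24 siNC stood below the other libraries. Its log2 fold change was 0.64 ± 0.24 (SE, adjusted p = 0.042), it fell to 0.34 (adjusted p = 0.24) without that library, and the call held in only 5 of 18 fits without 1 library. AGO4 was at 2.29, 2.39 and 4.005 RPKM in UM-UC-3 cells, with replicate 3 far above the others, and at 1.82, 2.00 and 2.28 RPKM in T24 cells. Its log2 fold change was 0.55 ± 0.20 (SE, adjusted p = 0.031), it was 0.26 (adjusted p = 0.26) without UM-UC-3 siNC replicate 3, and the call held in 10 of 18 fits without 1 library. Without the T24 replicate 2 libraries neither AGO1 (0.35, adjusted p = 0.15) nor AGO4 (0.48, adjusted p = 0.10) was called.

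In all, 4 of the 10 genes were called higher in UM-UC-3 cells and 0 lower, where 22.0% of the 20144 tested genes were called higher and 44.3% were called in either direction. DESeq2 called 4, and its share over all genes is not reported here. With T24 replicate 2 left out, 2 were called, TARBP2 and AGO3, where 8974 of 20458 tested genes were called. The median log2 fold change was 0.37 over the 10 genes and 0.03 over all tested genes. DICER1 had a log2 fold change of 0.64 ± 0.30 (SE, adjusted p = 0.091) that did not pass the test but did without UM-UC-3 siNC replicate 3 (0.85, adjusted p = 0.037), and the remaining 5 genes lay between -0.27 (TNRC6A) and 0.19 (XPO5). AGO2 had 0.14 ± 0.18 (SE, adjusted p = 0.58), and whether it differed from the other Argonautes was not tested. Without T24 replicate 2, TNRC6A was at -0.51, DROSHA at -0.39 and AGO2 at 0.31, none of them called. UM-UC-3 cells were grown in MEM and T24 cells in RPMI medium, so cell line and medium cannot be told apart.

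**Figure D2:**
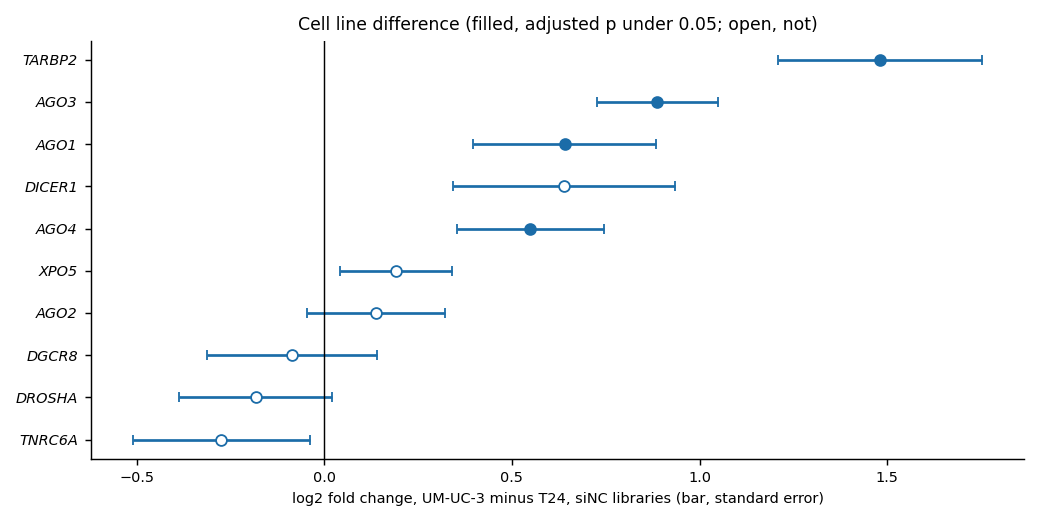
Log2 fold change of each of the 10 genes between siNC libraries of UM-UC-3 and T24 cells (positive values are higher in UM-UC-3), with the standard error as bars. The 4 filled points, TARBP2, AGO3, AGO1 and AGO4, had an adjusted p under 0.05, and the 6 open points did not.

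Since AGO4, AGO1 and AGO3 lie side by side, the genes around them were examined, a set chosen after the values were seen. Of 22 tested neighbours within 500 kb, 6 were called higher in UM-UC-3 cells, 3 were called lower and 13 were not called, and the median log2 fold change was 0.45, against 0.03 over all tested genes. As 44.3% of all genes were called and 22.0% were called higher in this comparison, these counts lie near the background. The farthest on the AGO4 side, ZMYM4, had 1.10 ± 0.18 (SE, adjusted p = 1.2e-04), and STK40 on the AGO3 side had 1.22 ± 0.26 (SE, adjusted p = 0.0011). The called lower genes were all on the AGO3 side, EVA1B (-5.29 ± 0.54 SE), SH3D21 (-2.48 ± 0.31 SE) and MAP7D1 (-0.53 ± 0.14 SE). Among the 6 called higher, RP4-665N4.8 (0.79 ± 0.29 SE) shares 86 exon bases with AGO3 on the opposite strand. Reads of these genes may not have been told apart there. A positive value was seen for 17 of the 22 neighbours and for 51.2% of all tested genes. When the T24 replicate 2 libraries were left out, the counts were also 6 higher and 3 lower, with 17 positive values and a median of 0.34.

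**Figure D3:**
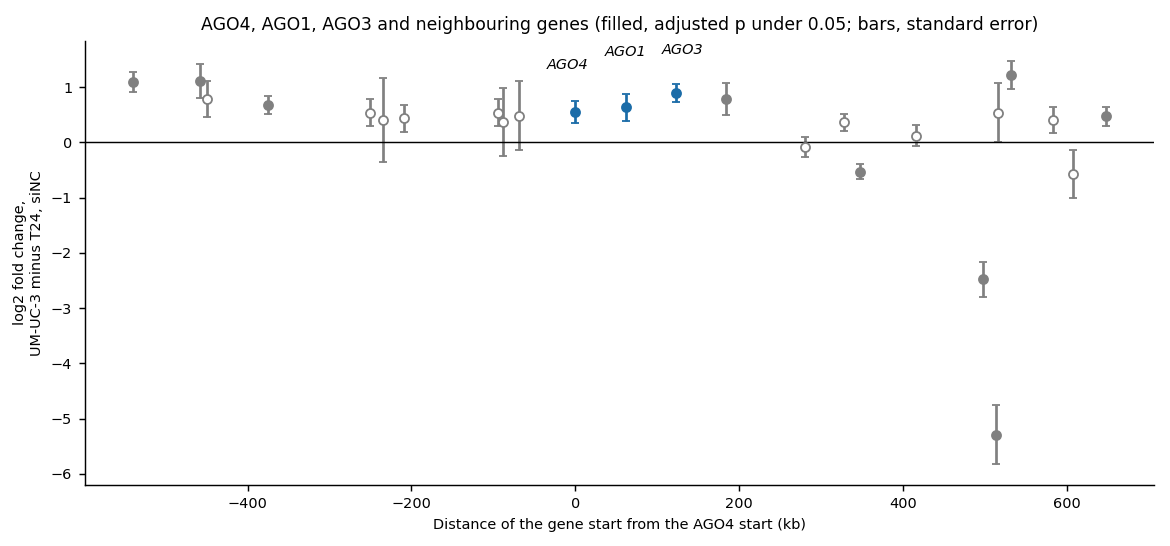
Log2 fold change between siNC libraries (UM-UC-3 minus T24) of AGO4, AGO1 and AGO3 (blue) and of the 22 tested neighbouring genes (grey) against the distance of each gene's start from the AGO4 start in kb; bars are standard errors and filled points had an adjusted p under 0.05. The 3 Argonaute genes sit at 0.55, 0.64 and 0.89, within a stretch where most neighbours are also above 0.

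The promoters of these 3 neighbours are shown because the genes are adjacent, lie on one strand and were called higher in the same line with all libraries. The calls of AGO1 and AGO4 were lost without the T24 replicate 2 libraries. Each sequence, from RefSeq on GRCh38.p14, runs from 250 bases before to 50 bases after a gene's start on the plus strand, and capitals mark the motifs searched on both strands, the CCAAT box (CCAAT), the GC box (GGGCGG) and the TATA box (TATAAA). The windows are chr1:35807766-35808065 for AGO4, chr1:35882959-35883258 for AGO1 and chr1:35930855-35931154 for AGO3. They are set on the RefSeq starts, which differ from the first exon base in the count table: the RefSeq start lies 156 bases before it for AGO4, 13401 bases after it for AGO1 and 387 bases after it for AGO3, so the AGO1 window lies inside the gene as the table draws it.
AGO4: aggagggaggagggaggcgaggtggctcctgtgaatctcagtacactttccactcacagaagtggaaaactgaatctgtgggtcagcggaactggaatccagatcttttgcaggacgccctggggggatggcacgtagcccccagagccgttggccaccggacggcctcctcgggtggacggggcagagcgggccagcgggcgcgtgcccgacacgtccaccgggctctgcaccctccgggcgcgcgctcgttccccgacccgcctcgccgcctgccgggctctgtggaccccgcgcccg
AGO1: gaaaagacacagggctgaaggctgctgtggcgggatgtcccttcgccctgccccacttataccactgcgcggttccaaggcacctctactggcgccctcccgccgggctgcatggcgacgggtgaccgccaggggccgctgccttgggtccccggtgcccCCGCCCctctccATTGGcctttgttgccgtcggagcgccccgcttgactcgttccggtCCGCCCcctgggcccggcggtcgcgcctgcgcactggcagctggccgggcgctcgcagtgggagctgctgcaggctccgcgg
AGO3: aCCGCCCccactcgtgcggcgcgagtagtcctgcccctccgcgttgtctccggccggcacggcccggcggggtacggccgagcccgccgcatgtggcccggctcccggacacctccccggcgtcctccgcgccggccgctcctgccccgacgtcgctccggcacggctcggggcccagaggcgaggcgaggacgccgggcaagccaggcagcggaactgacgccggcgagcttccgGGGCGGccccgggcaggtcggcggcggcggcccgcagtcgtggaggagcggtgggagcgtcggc
All 3 are rich in G and C, with 69.0% for AGO4, 72.3% for AGO1 and 80.0% for AGO3, against a median of 58.7% over 35116 promoters of the same length. A GC box was found at 2 places in AGO1 and at 2 in AGO3, and it is held by 45.0% of all promoters. AGO1 alone of the 3 held a CCAAT box, which is found in 34.6% of all promoters, and 0 of the 3 held a TATA box, which is found in 11.5%.

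The effect of ACAT1 knockdown was then examined. In the model of the 6 groups, 0 of the 10 genes passed the test in any of the 4 comparisons with siNC. The share of all 20144 tested genes called in UM-UC-3 cells was 0.00993% for siACAT1-1 and 0.0546% for siACAT1-2, and it was 0.124% and 0.268% in T24. For the mean of the 4 comparisons, 0 of 10 genes were called, against 0.223% of all genes. At an unadjusted p under 0.05, 0 of the 10 genes passed for either siRNA in UM-UC-3 cells, 2 for siACAT1-1 and 1 for siACAT1-2 in T24 cells, and 0 for the mean, where 5.34% and 3.86%, 11.5% and 8.44%, and 10.9% of all genes did. DESeq2 called 0 of the 10 genes in each of these 5 comparisons, and its share over all genes is not reported here. The model without the T24 replicate 2 libraries also called 0. It called 0.00978% and 0.108% of all genes in UM-UC-3, 2.9% and 0.684% in T24 and 2.13% for the mean. In that model 3 and 1 had an unadjusted p under 0.05 for siACAT1-1 and siACAT1-2 in T24, where 17.5% and 11.4% of all genes did. For the mean 2 passed, where 16.3% of all genes did. For either siRNA in UM-UC-3 0 passed, where 9.04% and 6.11% of all genes did. The median log2 fold change of the mean effect was -0.0016 over the 10 genes, as near to 0 as that of all genes (-0.0013).

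Replicates with one number in a cell line deviated together, so the replicate number was entered as a block in a second model. That model called 3.06% and 1.36% of all genes in UM-UC-3 cells for siACAT1-1 and siACAT1-2, 13.9% and 8.48% in T24 cells, and 12.4% for the mean of the 4 comparisons. Among the 10 genes it called 0 for either siRNA in UM-UC-3 cells, 2 for siACAT1-1 and 0 for siACAT1-2 in T24 cells, and 1 for the mean. The called genes were DROSHA (both comparisons) and DICER1. At an unadjusted p under 0.05, 2 passed for siACAT1-1 and 2 for siACAT1-2 in UM-UC-3 cells, and 2 for siACAT1-2 in T24 cells. Of all genes, 18.5%, 13.4% and 22.9% passed, in the same order. In the fit without T24 replicate 2, the model with the block called 2 genes for siACAT1-1 in T24 cells, DROSHA and DICER1, 1 for siACAT1-2 in T24 cells, TNRC6A (-0.74, adjusted p = 0.017), and 2 for the mean, DROSHA and TNRC6A (-0.35, adjusted p = 0.026). These 3 comparisons called 18.3%, 8.84% and 15.6% of all genes in that fit. With and without these libraries the shares of 10 lie near the shares of all genes.

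DROSHA was at 22.4, 15.3 and 21.1 RPKM with siNC in T24 replicates 1 to 3. With siACAT1-1 it was at 15.0, 11.99 and 13.6 RPKM, so that no library reached the lowest siNC library, and with siACAT1-2 it was at 20.1, 13.3 and 16.3 RPKM. In UM-UC-3 cells, the values were 18.0, 16.7 and 15.8 RPKM with siNC, 14.9, 16.3 and 13.0 RPKM with siACAT1-1 and 16.2, 16.97 and 15.3 RPKM with siACAT1-2, and the groups overlapped. Within a replicate number, DROSHA was lower than siNC in 11 of 12 comparisons, in which each siNC library was used for both siRNAs. How many of all genes were so was not counted. The mean log2 fold change over the 4 comparisons was -0.26 ± 0.06 (SE) with the block, with an adjusted p of 0.010, against an adjusted p of 0.46 without the block. The call was lost without UM-UC-3 siNC replicate 1 (-0.23, adjusted p = 0.059) and without T24 siNC replicate 3 (-0.24, adjusted p = 0.062), and it held in 16 of 18 such fits and without T24 replicate 2 (-0.28, adjusted p = 0.0065). In T24 cells alone, siACAT1-1 gave -0.51 ± 0.10 (SE, adjusted p = 0.0030) with the block and -0.53 ± 0.20 (SE, adjusted p = 0.31) without it, and the call with the block held in 18 of 18 fits without 1 library and without T24 replicate 2 (-0.62, adjusted p = 0.0013).

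DICER1, which encodes the cytoplasmic RNase that makes mature microRNA duplexes, was called higher with siACAT1-1 in T24 cells and differed between the 2 siRNAs. In T24 cells it was at 3.20, 2.07 and 2.76 RPKM with siNC, at 5.63, 2.60 and 4.58 RPKM with siACAT1-1 and at 2.33, 2.10 and 2.41 RPKM with siACAT1-2. All 3 siACAT1-1 libraries lay above all 3 siACAT1-2 libraries. In UM-UC-3 cells, the values were 4.81, 4.53 and 2.82 RPKM with siNC, 4.99, 5.08 and 3.43 RPKM with siACAT1-1 and 3.88, 3.27 and 2.62 RPKM with siACAT1-2, and replicate 3 was the lowest in each group. For siACAT1-1 in T24 cells the log2 fold change was 0.65 ± 0.14 (SE, adjusted p = 0.0034) with the block and 0.69 ± 0.30 (SE, adjusted p = 0.37) without it, and the call with the block was lost without T24 siACAT1-1 replicate 1 (0.50, adjusted p = 0.073). Without T24 replicate 2, whose DICER1 values were the lowest of each T24 group, it was 0.76 (adjusted p = 5.1e-04). For siACAT1-2 it was -0.18 ± 0.14 in T24 cells and -0.34 ± 0.13 in UM-UC-3 cells (SE, with the block), and neither passed the test.

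The siRNAs were compared directly, over both cell lines. Without the block 0 of the 10 genes were called, where 2.56% of all genes were called. At an unadjusted p under 0.05, 3 of the 10 passed, where 16.7% of all genes did. DESeq2 called 1, DICER1 (adjusted p = 0.023), and its share over all genes is not reported here. With the block 3 of the 10 genes were called, all lower with siACAT1-2, where 20.6% of all genes were called. DICER1 had a log2 fold change (siACAT1-2 minus siACAT1-1) of -0.67 ± 0.10 (SE, adjusted p = 8.2e-05) with the block and -0.70 ± 0.21 (SE, adjusted p = 0.082) without it. It was lower with siACAT1-2 in 6 of 6 replicate-matched comparisons, and the call with the block held in 18 of 18 fits without 1 library. DROSHA was higher with siACAT1-2 in 6 of 6. How many of all genes kept one direction in 6 of 6 was not counted, here or for the genes named below. With T24 replicate 2 left out, DICER1 was called also without the block (-0.80, adjusted p = 0.017), as was XPO5 (-0.37, adjusted p = 0.049), and with the block 6 of the 10 genes were called. These 6 were DICER1, XPO5, TNRC6A and DGCR8 (-0.28, adjusted p = 0.036), lower with siACAT1-2, and TARBP2 (0.34, adjusted p = 0.026) and DROSHA (0.23, adjusted p = 0.038), higher with siACAT1-2. In that fit 4750 of 20458 tested genes were called.

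TNRC6A and XPO5 were the other genes called with all libraries. TNRC6A, the GW182 scaffold, was at 7.36, 4.24 and 5.75 RPKM with siNC in T24 cells, at 6.73, 4.27 and 5.13 RPKM with siACAT1-1 and at 3.03, 3.94 and 4.81 RPKM with siACAT1-2. In the UM-UC-3 line it was at 4.37, 5.15 and 4.52 RPKM with siNC, at 4.67, 4.52 and 3.78 RPKM with siACAT1-1 and at 4.30, 3.45 and 3.21 RPKM with siACAT1-2. In that line no siACAT1-2 library reached the lowest siNC library, and over both lines TNRC6A was lower with siACAT1-2 than with siACAT1-1 in 6 of 6 matched comparisons. The log2 fold change between the siRNAs was -0.35 ± 0.12 (SE, adjusted p = 0.040) with the block and -0.37 ± 0.17 (SE, adjusted p = 0.27) without it, and the call held in 11 of 18 fits without 1 library. The value nearest to 0, -0.19 (adjusted p = 0.15), came without T24 siACAT1-2 replicate 1. XPO5, the precursor exporter, was at 3.42, 3.16 and 3.35 RPKM with siACAT1-1 in T24 cells and at 2.29, 3.07 and 2.17 RPKM with siACAT1-2, without overlap, while its UM-UC-3 groups overlapped. Its log2 fold change was -0.29 ± 0.09 (SE, adjusted p = 0.030) with the block and -0.28 ± 0.11 (SE, adjusted p = 0.17) without it, and the call held in 11 of 18 fits without 1 library.

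**Figure D4:**
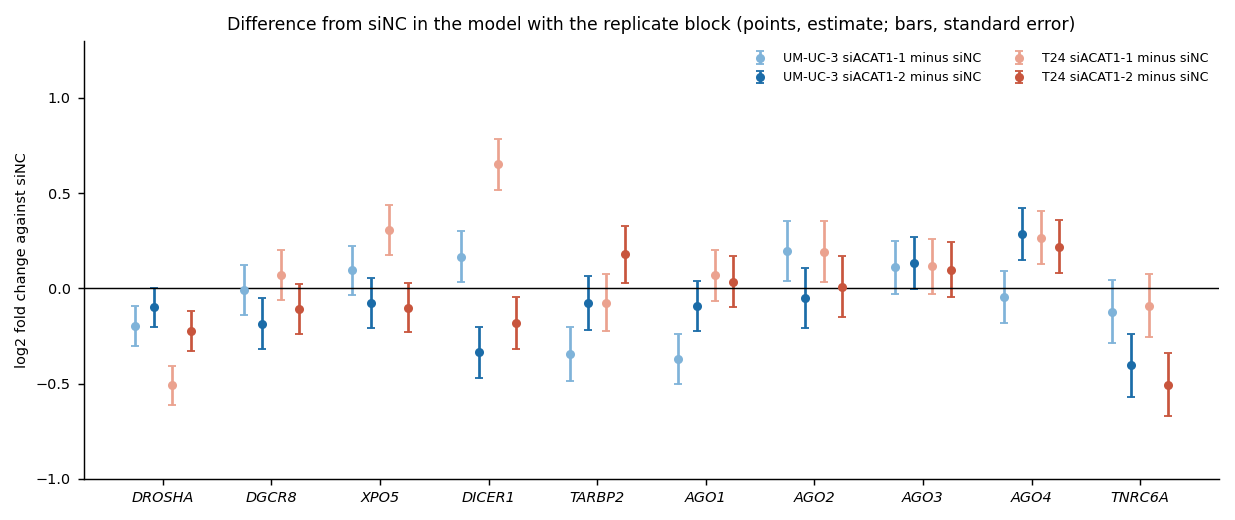
Log2 fold change against siNC of the 10 genes for each siRNA in each cell line, from the model with the replicate block; bars are standard errors, and values below 0 are lower than siNC. DROSHA is below 0 in all 4 comparisons, and DICER1 is above 0 with siACAT1-1 and below 0 with siACAT1-2 in both lines.

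Whether the knockdown effect differed between the lines was tested as an interaction. Without the block, 0 of the 10 genes and 0% of all genes were called, and with the block 0 of the 10 genes and 0.104% of all genes were called. At an unadjusted p under 0.05, 0 of the 10 genes passed in either model, where 2.57% (without the block) and 9.46% (with it) of all genes did. DESeq2 called 0, and its share over all genes is not reported here. Both models without T24 replicate 2 also called 0, where 0.0147% (without the block) and 0.626% (with it) of all genes were called. The largest differences with the block were -0.32 ± 0.17 (SE) for DICER1 and -0.28 ± 0.16 (SE) for AGO1, both with an adjusted p over 0.5. Without T24 replicate 2 they were -0.29 and -0.05 with the block, and the largest was 0.31 for DROSHA (unadjusted p = 0.032, adjusted p = 0.35).

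With all 18 libraries, AGO2 and 5 other genes had no call in any comparison of an siRNA with siNC or with the other siRNA. With the block, AGO2 had log2 fold changes of 0.20 (siACAT1-1) and -0.05 (siACAT1-2) in the UM-UC-3 line and of 0.19 and 0.01 in T24, each with a standard error of 0.16. Its libraries ranged from 1.77 to 2.495 RPKM in UM-UC-3 and from 1.33 to 2.41 RPKM in T24. AGO4 had 0.18 ± 0.08 (SE, adjusted p = 0.18) for the mean effect and was higher than siNC in 9 of 12 matched comparisons. DGCR8 had -0.06 ± 0.08 and TARBP2 -0.08 ± 0.09 (SE).

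Replicate numbers carried more of the variance than the siRNAs for several of the genes. In T24 cells, the replicate number took 79.3% of the variance of AGO1 and the siRNA 1.12%, and for TARBP2 the shares were 78.4% and 8.18%. T24 replicate 2 was the lowest of 3 in each T24 group for AGO1, DROSHA, TARBP2 and DICER1. For XPO5 in this line the siRNA took the larger share, 67.4% against 7.83%. Over the 10 genes the medians for replicate number and siRNA were 44.8% and 32.2% in UM-UC-3 and 36.3% and 28.3% in T24, where all tested genes had medians of 38.4% and 25.3%, and of 44.4% and 25.2%.

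Genes whose pattern over the libraries was most like that of 3 key enzymes were listed by the Pearson correlation of log2 CPM, over 18 libraries from which the mean of each cell line was subtracted. DROSHA was followed most closely by C14orf80 (0.95), AC009065.1 (0.95) and PDS5B (0.94). For DICER1 the closest were RANBP6 (0.94), SRSF11 (0.93) and ANKUB1 (0.93), and for AGO2 they were RANBP2 (0.81), SF3A1 (0.80) and DIP2B (0.80). These values are a description, since all genes share the same libraries and their replicate numbers.

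Other genes of the pathway were taken in 6 lists, and without the block 0 genes of any list were called for the mean knockdown effect. With the block, 12.4% of all genes were called for this effect, 5.95% higher and 6.46% lower, and the counts of each list are to be read against these shares. Among 12 cofactors of primary transcript processing, 0 were called higher and 2 lower with the block, HNRNPA1 (-0.36 ± 0.08 SE), which binds pri-miR-18a, and the splicing factor SRSF3 (-0.29 ± 0.07 SE). The median of this list was -0.14, against -0.00099 over all genes. HNRNPA1 has many near-identical pseudogenes, and its counts are uncertain where reads were split between them. Of 10 tested genes for export, Dicer partners and precursor tailing, 0 were called with the block and the median was 0.00016. Of 17 tested genes for Argonaute loading and handling, 5 were called higher and 0 lower, with a median of 0.11. They included P4HA1 (0.48 ± 0.10 SE), a subunit of the prolyl hydroxylase that modifies AGO2, TSNAX (0.30 ± 0.09 SE), a subunit of the C3PO nuclease, HSPA4 (0.29 ± 0.08 SE), a chaperone of the HSP70 family, and CDC37 (0.26 ± 0.06 SE), an HSP90 cochaperone that was higher than siNC in 12 of 12 matched comparisons. When the T24 replicate 2 libraries were left out, the numbers called with the block were the same in these 3 lists, and P4HA1 was called also without the block (0.63, adjusted p = 0.018).

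Of 33 genes of silencing effectors, 3 were called higher and 2 lower with the block, a share near the 12.4% of all genes, and the median was -0.0047. TNRC6B, the paralog of TNRC6A, was higher (0.43 ± 0.08 SE, adjusted p = 0.0015 with the block and 0.085 without it), in 11 of 12 matched comparisons. In the UM-UC-3 line it was at 1.41 ± 0.171 RPKM (SD, n = 3) with siNC, 2.00 ± 0.104 with siACAT1-1 and 1.79 ± 0.0767 with siACAT1-2, and in T24 at 1.36 ± 0.139, 2.17 ± 0.269 and 1.57 ± 0.358. TNRC6C, the other paralog, had -0.03 ± 0.09 (SE, adjusted p = 0.91). CNOT8, a deadenylase subunit, was lower (-0.35 ± 0.06 SE), FXR2, an RNA-binding protein of the fragile X family, was higher (0.33 ± 0.07 SE), and AJUBA, a LIM-domain protein, was lower (-0.32 ± 0.10 SE). AJUBA was lower than siNC in 8 of 12 matched comparisons, and lower with siACAT1-2 than with siACAT1-1 in 6 of 6. In the UM-UC-3 line CNOT8 was at 13.5 ± 0.677 RPKM with siNC, 8.45 ± 0.420 with siACAT1-1 and 13.1 ± 0.387 with siACAT1-2, and in T24 at 11.7 ± 1.06, 7.33 ± 0.726 and 11.6 ± 0.661 (SD, n = 3). In both lines, therefore, its low libraries were those with siACAT1-1, and the difference between the siRNAs was called without the block (0.63 ± 0.09 SE, adjusted p = 0.0014). In the fit without T24 replicate 2, the block gave 3 higher and 2 lower as well, and TNRC6B (0.48, adjusted p = 0.028) and CNOT8 (-0.36, adjusted p = 0.032) were called also without the block.

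Between the lines, with siNC, 22.0% of all genes were called higher in UM-UC-3 cells and 22.3% lower. In the primary processing list 1 gene was called higher (HNRNPA1, 0.82 ± 0.20 SE) and 0 lower, with a median of 0.04 that turned to -0.15 without T24 replicate 2. In the export and tailing list 1 was higher, the uridylyltransferase gene ZCCHC11 (also TUT4, 0.92 ± 0.17 SE), and 2 were lower, the exonuclease genes DIS3L2 (-0.79 ± 0.14 SE) and PARN (-0.52 ± 0.19 SE), with a median of -0.24. In the loading list 1 was higher, IPO8 (0.51 ± 0.17 SE), an importin that also binds Argonaute, and 3 were lower, TSNAX (-0.94 ± 0.22 SE), its C3PO partner TSN (-0.86 ± 0.15 SE) and CDC37 (-0.80 ± 0.14 SE), with a median of -0.16. Of the 33 effectors 11 were higher and 4 lower, near the share of all genes called, with a median of 0.31 against 0.03 over all genes. WTIP, a relative of AJUBA, was higher (1.48 ± 0.26 SE), as was the P-body protein gene LSM14A (1.41 ± 0.13 SE), while the decapping enhancer gene EDC3 (-1.44 ± 0.28 SE) and AJUBA (-1.40 ± 0.27 SE) were lower. Of the PIWI-clade genes, which act with germline piRNAs, PIWIL4 alone passed the filter and was higher in UM-UC-3 cells (1.40 ± 0.36 SE), at 0.819 ± 0.0996 RPKM against 0.322 ± 0.113 (SD, n = 3). PIWIL1, PIWIL2 and PIWIL3 had at most 2 counts in any siNC library. With T24 replicate 2 left out, IPO8 (0.45, adjusted p = 0.069) was no longer called, and the other genes named here from the 5 lists were.

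The primary transcripts that Drosha cuts were followed through the noncoding genes that host microRNAs. Mature microRNAs were not measured, so these values describe host RNA only. Hosts of one seed family are shown first because they differed between the lines in opposite directions. Capitals mark the seed, bases 2 to 8 of the mature strand, and the sequences are from RefSeq on GRCh38.p14. MiR-424-5p (chrX:134546680-134546701) lies in an exon of MIR503HG and miR-503-5p (chrX:134546371-134546393) in its intron, miR-195-5p (chr17:7017667-7017687) and miR-497-5p (chr17:7017979-7017999) lie in exons of MIR497HG, and miR-15a-5p (chr13:50049167-50049188) lies in an exon and miR-16-5p (chr13:50049027-50049048) in an intron of DLEU2, all on the minus strand.
hsa-miR-424-5p: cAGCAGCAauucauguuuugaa
hsa-miR-503-5p: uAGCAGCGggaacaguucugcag
hsa-miR-195-5p: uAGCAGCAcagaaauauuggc
hsa-miR-497-5p: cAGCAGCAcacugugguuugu
hsa-miR-15a-5p: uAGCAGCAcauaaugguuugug
hsa-miR-16-5p: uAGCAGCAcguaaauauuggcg
All but miR-503-5p share the seed AGCAGCA, and the seed of miR-503-5p is AGCAGCG. MIR503HG had 0 counts in all 3 UM-UC-3 siNC libraries and 113, 105 and 295 counts in the T24 siNC libraries, so it was at least 56.8-fold higher in T24 cells, with a floor of 3 counts in each library. The bound was 34.5-fold without T24 siNC replicate 3, which had the 295 counts. MIR497HG was higher in UM-UC-3 cells, at 2.87, 2.51 and 3.45 RPKM against 0.673, 0.988 and 0.780 RPKM, with a log2 fold change of 1.91 ± 0.20 (SE, adjusted p = 8.4e-07). DLEU2 was also higher in UM-UC-3 cells, at 2.22, 3.81 and 1.70 RPKM against 1.24, 0.926 and 1.23 RPKM, with 1.23 ± 0.34 (SE, adjusted p = 0.0080).

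**Figure D5:**
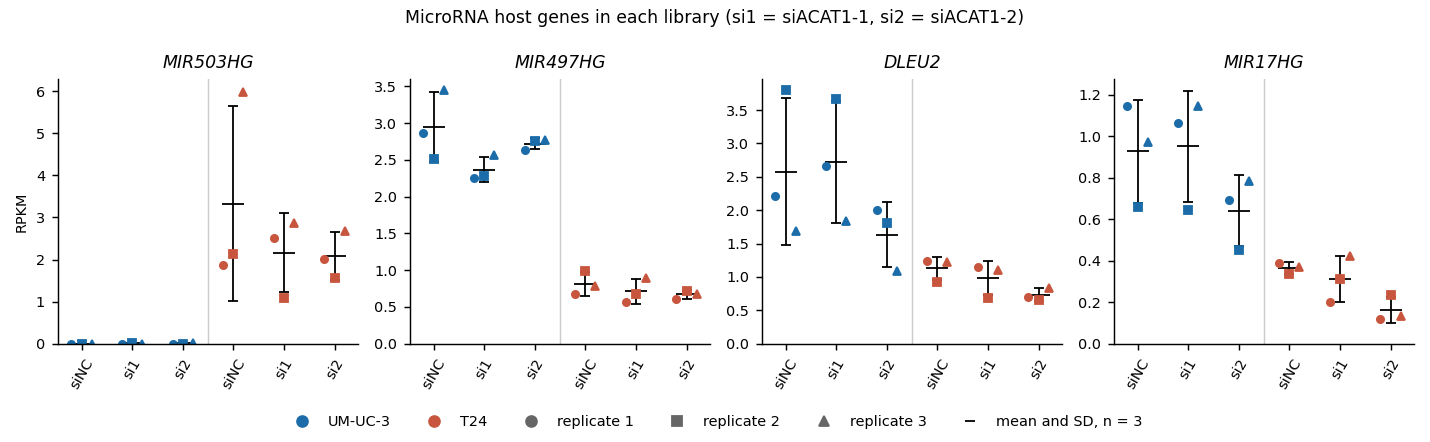
Expression of 4 microRNA host genes in each library, in RPKM on linear axes that start at 0, for siNC, siACAT1-1 (si1) and siACAT1-2 (si2); symbols are replicates 1 to 3 and black bars are mean and SD (n = 3). MIR503HG is at or near 0 in all UM-UC-3 libraries, and MIR497HG is higher in every UM-UC-3 library than in any T24 library.

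Of 21 tested host genes, 7 were called higher in UM-UC-3 cells with siNC and 3 lower, near the 44.3% of all genes called, with a median log2 fold change of 0.10 against 0.03 over all genes. H19, the host of miR-675, was at 9.76, 13.7 and 14.8 RPKM in UM-UC-3 and at 0.350, 0.0754 and 0.227 RPKM in T24, with a log2 fold change of 5.86 ± 0.58 (SE, adjusted p = 5.1e-07). MIR155HG had 2, 0 and 4 counts in UM-UC-3 and 28, 30 and 18 in T24. MIR3142HG, whose exon holds miR-146a, had 2, 0 and 4 counts in UM-UC-3 and 7, 100 and 31 in T24, so its T24 replicates differed widely among themselves. When the T24 replicate 2 libraries were left out, 7 host genes were called higher and 6 lower, with a median of 0.21, H19 (5.42), MIR497HG (2.00) and DLEU2 (1.05, adjusted p = 0.029) among the higher.

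For ACAT1 knockdown, 1 host gene was called higher and 5 lower with the block for the mean of the 4 comparisons, where 12.4% of all genes were called, with a list median of -0.19. MIR99AHG (-0.59 ± 0.16 SE), the host of miR-99a and let-7c, and MIR17HG (-0.50 ± 0.16 SE, adjusted p = 0.049) had the largest changes, and DLEU2 (-0.34 ± 0.10 SE) was lower and MIR22HG (0.30 ± 0.07 SE) higher. Both MIR17HG and DLEU2 were lower with siACAT1-2 than with siACAT1-1 in 6 of 6 matched comparisons. Mean DLEU2 levels for siNC, siACAT1-1 and siACAT1-2 were 2.57, 2.72 and 1.64 RPKM in UM-UC-3. The T24 means were 1.13, 0.985 and 0.732 RPKM, in the same order. In UM-UC-3, therefore, the DLEU2 mean was below siNC for siACAT1-2 only. MIR17HG, whose oncogenic cluster is a well-known substrate of Drosha, was at 1.15, 0.660 and 0.973 RPKM in UM-UC-3 cells with siNC, at 1.07, 0.644 and 1.14 RPKM with siACAT1-1 and at 0.692, 0.450 and 0.783 RPKM with siACAT1-2. In T24 cells it was at 0.391, 0.335 and 0.368 RPKM with siNC, 0.201, 0.313 and 0.421 RPKM with siACAT1-1 and 0.118, 0.234 and 0.135 RPKM with siACAT1-2, with no overlap between the last group and siNC. Its low counts, 12 to 119 per library, limit the precision. In the fit without T24 replicate 2, 1 host gene was called higher and 5 lower with the block, MIR99AHG (-0.63), MIR17HG (-0.61), DLEU2 (-0.33) and MIR22HG (0.35) among them. The mature strands of this cluster are printed with their seeds in capitals because they fall into few seed families, all from exons of MIR17HG on the plus strand of chromosome 13.
hsa-miR-17-5p: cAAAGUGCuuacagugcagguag
hsa-miR-20a-5p: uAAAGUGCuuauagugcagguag
hsa-miR-18a-5p: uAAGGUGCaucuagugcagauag
hsa-miR-19a-3p: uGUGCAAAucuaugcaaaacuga
hsa-miR-19b-3p: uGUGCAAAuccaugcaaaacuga
hsa-miR-92a-3p: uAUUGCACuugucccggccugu
MiR-17-5p and miR-20a-5p share the seed AAAGUGC and miR-19a-3p and miR-19b-3p share GUGCAAA, while miR-18a-5p (AAGGUGC) and miR-92a-3p (AUUGCAC) each have their own. Between the siRNAs, 0 host genes were called higher without the block and 1 lower with siACAT1-2, MIR100HG (-0.81 ± 0.18 SE, adjusted p = 0.024), which was named after its value was seen and was lower in 6 of 6 matched comparisons. Without T24 replicate 2 it was -0.94 (adjusted p = 0.0060), and 2 hosts were called lower.

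DGCR8 carries microRNA hairpins in its own mRNA, through which Microprocessor is known to cut the transcript of its own subunit. The annotation places miR-3618 at chr22:20085797-20085818 and both strands of miR-1306 at chr22:20086072-20086093 and chr22:20086112-20086129, all in an exon of DGCR8 on the plus strand, and they are printed because they tie one of the 10 genes to another as substrate and enzyme.
hsa-miR-3618: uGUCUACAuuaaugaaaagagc
hsa-miR-1306-5p: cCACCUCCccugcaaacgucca
hsa-miR-1306-3p: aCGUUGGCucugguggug
DGCR8 was at 13.7, 10.5 and 11.3 RPKM with siNC, 17.4, 9.36 and 11.01 RPKM with siACAT1-1 and 11.1, 10.97 and 10.1 RPKM with siACAT1-2 in T24 cells. Where DROSHA was lower with siACAT1-1 in T24 cells, the DGCR8 groups overlapped and its log2 fold change was 0.07 ± 0.13 (SE, adjusted p = 0.78) with the block. Whether cutting of the DGCR8 transcript changed was not tested, since gene counts do not measure it. In UM-UC-3 cells DGCR8 ranged from 8.59 to 13.1 RPKM over all 9 libraries.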

How the data were processed

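RNA was sequenced from 18 libraries of UM-UC-3 and T24 cells. Per the labels and the study's methods, the authors made stranded mRNA libraries, trimmed them with Trimmomatic 0.36, aligned the reads by STAR 2.5.3 against GRCh38 and counted them on gene exons with featureCounts (Subread 1.5.1). They deposited counts without normalization and RPKM values calculated from these counts. The annotation release, the strand setting, whether molecular identifiers were collapsed and how multimapping reads were treated are not given in the sources used here. Depth was 25163490 to 34417230 counts per library (median 28613163).

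The quasi-likelihood test of edgeR 4.0.16 (R 4.3.3; scaling by TMM, filter by filterByExpr) was run on counts in 1 model of 6 groups and 18 libraries, over 20144 of 39496 genes. Genes with a Benjamini-Hochberg adjusted p under 0.05 over all tested genes count as called. The 8 comparisons were each siRNA against siNC in each line, their mean, the difference of that effect between lines, siACAT1-2 against siACAT1-1 and UM-UC-3 against T24 with siNC. The test was checked on simulated counts. Levels are the deposited RPKM, and matched comparisons were made on RPKM within a replicate number. Each siNC library was compared with both siRNAs, so the 12 matched comparisons with siNC are not independent of each other. How many of all tested genes kept one direction in the matched comparisons was not counted.

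Whether numbers pair the libraries was checked on deviations from the group means. Across genes, no independent replicates, libraries with one number had r of 0.115 to 0.576 within UM-UC-3 and of 0.356 to 0.686 within T24, libraries with other numbers -0.545 to 0.269 and -0.567 to 0.210, and the same number across lines -0.327 to 0.211. The pairing within a line was taken from these values, and the labels call the replicates biological without saying what a number marks.

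The 6 lists of pathway genes, the markers and the 10 genes were chosen with earlier results of these data known. Named from each list were up to 4 called genes with the largest change, for the mean knockdown effect (with the block where none was called without it) and for the cell lines, and the paralogs. Of the list genes, LIN28B, MIR200CHG, MIR34AHG and MIR924HG were not matched in the table. Alternatives were the replicate block, DESeq2 1.42.0 and its size factors, no filter on low counts, the 9 libraries of a line alone, the mean over the 3 transfections and leaving out each library in turn. Leaving out single libraries under the block, and leaving out the 3 T24 replicate 2 libraries in both models, were added after the data were seen.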

Additional observations from a re-analysis of the deposited data

How the results depend on the processing

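With the replicate block, 2 of the 10 genes were called for siACAT1-1 in T24 cells, 1 for the mean of the 4 knockdown comparisons and 3 for siACAT1-2 against siACAT1-1, where the model without the block called 0, and the block changed no other call on the 10 genes. For siACAT1-2 against siACAT1-1, DESeq2 called 1 and the model with no filter on low counts called 1. Without the filter the cell line comparison called 3, since AGO1 (0.60, adjusted p = 0.063) and AGO4 (0.51, adjusted p = 0.15) were lost and DICER1 (0.59, adjusted p = 0.049) was called, and over the mean of the 3 transfections it called 5, with DICER1 at 0.41 (adjusted p = 0.042). The block was not fitted for the cell lines, whose numbers did not pair. When each library was left out in turn, the number called ranged from 2 to 4 for the cell lines and from 0 to 1 for siACAT1-2 against siACAT1-1 without the block. With the block it ranged from 1 to 3 for siACAT1-1 in T24 cells, from 0 to 1 for siACAT1-2 in T24 cells, from 0 to 2 for the mean and from 1 to 5 for siACAT1-2 against siACAT1-1. The shares of all genes in these fits, by DESeq2, without the filter and over the 3 transfections are not reported here. With all 18 libraries and no block, 44.3% of all genes were called for the cell lines and 2.56% for siACAT1-2 against siACAT1-1. With the block the shares were 13.9%, 8.48%, 12.4% and 20.6%, in the order of its ranges. Without the 3 T24 replicate 2 libraries, 2 genes were called for the cell lines and 2 for siACAT1-2 against siACAT1-1 without the block, and 1 for siACAT1-2 in T24 cells, 2 for the mean and 6 for siACAT1-2 against siACAT1-1 with it. Of all genes, 43.9%, 6.85%, 8.84%, 15.6% and 23.2% were called, in the same order. The log2 fold change of AGO3 between the siRNAs changed sign with the block (0.0016), without these libraries (0.0058) and without the filter (0.0049). Leaving out single libraries turned the sign of uncalled values of the mean effect for AGO2 (-0.024 to 0.17), DICER1 (-0.045 to 0.16), DGCR8 (-0.15 to 0.026) and TARBP2 (-0.20 to 0.048), of the cell line difference for AGO2 (-0.093 to 0.30) and DGCR8 (-0.26 to 0.078), and of AGO3 between the siRNAs (-0.073 to 0.054). The cause was not tested. With 3 libraries per group, small changes of these mRNAs may go undetected.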
